A study of Mus musculus with 2 samples.

Results

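The 9 genes described here carry autonomic signals in the heart muscle cell: the adrenergic receptor genes Adrb1, Adra1a and Adra1b, the muscarinic receptor gene Chrm2, the potassium channel genes Kcnj3 and Kcnj5, the phosphodiesterase genes Pde3a and Pde4d, and the protein kinase A gene Prkaca. They were chosen by name, with earlier results of these data known. All 9 were found among the 24522 genes of one deposited UMI table and among the 22679 genes of the other. The cells came from adult C57BL/6 wild-type mice. Hearts were digested by perfusion with collagenase and protease, cardiomyocytes were sorted one to a well on a sorter built for large particles, and RNA was counted by SCRB-seq, a plate method in which each cell carries a barcode and each RNA molecule a unique molecular identifier (UMI). The multichamber study took unfixed cells from mice about 3 months old and labelled each by chamber: LA and RA for the left and right atrium, LV and RV for the ventricles. The live and fixed study took ventricular cells either before fixation or after fixation, in which 800 µL of 100% ethanol was dripped into cells held in 200 µL of chilled buffer. Its labels call the mice adult and give no further age.

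After cells with fewer than 1000 gene UMIs or fewer than 500 genes were dropped, there remained 56 LA, 44 RA, 91 LV, 90 RV, 31 live and 35 fixed cells. Their gene UMIs summed to between 733462 in RA and 5259330 in RV, with a median per cell of 4437 in RA, 16146 in LA and between 40367 in live and 77150 in fixed cells for the other 4 pools. Levels are given as UMIs per 1000000 nuclear-encoded UMIs (CPM) of the summed cells. Each UMI stands for 1 captured 3' end, so levels were not divided by transcript length. The labels tie no cell to an animal, so each label gives 1 pool with no biological replicate. Nothing was tested, and the 95% intervals cover counting error only. The multichamber cells sat in 4 libraries, A to D. Each library held LV and RV cells, and 45 of the 56 LA cells were in libraries A and B. Cells labelled atrial were nearly free of atrial marker RNA: Nppa, the atrial natriuretic peptide gene, had 0 UMIs in LA and RA, Myl7, the atrial light chain gene, had 81 in LA and 0 in RA, and Sln, the sarcolipin gene, had 7 and 0. Myl2, the ventricular light chain gene, stood at 10497 and 10335 CPM in the ventricle pools and at 9322 and 11721 in LA and RA. The chamber names below are therefore those of the labels.

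As background, noradrenaline and adrenaline act on the beta-1 receptor, which couples through Gs to adenylyl cyclase and raises cyclic AMP. Cyclic AMP releases the catalytic subunit of protein kinase A, which phosphorylates calcium channels, phospholamban, troponin I and the transcription factor CREB. Phosphodiesterases break cyclic AMP down in small domains of the cell, alpha-1 receptors act through Gq and phospholipase C, and acetylcholine acts on the M2 receptor, whose Gi protein lowers cyclic AMP and opens the G-protein-gated potassium channel that slows the atria and the sinus node.

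Because protein kinase A acts on CREB, the promoters of the 9 genes were searched for its binding site, the cyclic AMP response element. RefSeq promoter windows on GRCm38.p6, from 250 bases before to 50 bases after a transcription start, were matched by symbol for 7 of the genes, 9 windows in all. None was matched for Adra1a and Pde3a. The full element TGACGTCA, which reads the same on both strands, was in 0 of these 9 windows and in 1.79% of all 32851 promoter windows. Its shorter form, TGACG or CGTCA on the other strand, was in 2 of the 9 and in 20.8% of all windows; every full element contains it. The windows with a match belonged to Adrb1, at chr19:56721867-56722166 on the plus strand, and to the first of the starts of Prkaca, at chr8:83972728-83973027 on the plus strand. They are shown with the shorter form in capitals, 5′ to 3′, beside a window of Pde4d at chr13:108653927-108654226 on the plus strand, which starts inside that gene, holds neither form and is shown because Pde4d had the highest level of the 9 and the lowest fixed to live ratio.
Adrb1: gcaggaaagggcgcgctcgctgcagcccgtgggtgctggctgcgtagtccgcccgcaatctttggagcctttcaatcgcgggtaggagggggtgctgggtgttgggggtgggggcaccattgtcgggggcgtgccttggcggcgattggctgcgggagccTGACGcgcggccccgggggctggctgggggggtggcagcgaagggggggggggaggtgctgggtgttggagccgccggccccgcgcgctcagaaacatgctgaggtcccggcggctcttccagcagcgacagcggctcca
Prkaca: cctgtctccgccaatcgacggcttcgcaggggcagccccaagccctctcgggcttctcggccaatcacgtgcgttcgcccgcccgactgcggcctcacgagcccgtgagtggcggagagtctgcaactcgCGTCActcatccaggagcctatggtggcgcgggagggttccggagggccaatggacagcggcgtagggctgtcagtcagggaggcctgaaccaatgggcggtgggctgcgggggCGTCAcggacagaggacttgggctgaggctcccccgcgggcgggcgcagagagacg
Pde4d: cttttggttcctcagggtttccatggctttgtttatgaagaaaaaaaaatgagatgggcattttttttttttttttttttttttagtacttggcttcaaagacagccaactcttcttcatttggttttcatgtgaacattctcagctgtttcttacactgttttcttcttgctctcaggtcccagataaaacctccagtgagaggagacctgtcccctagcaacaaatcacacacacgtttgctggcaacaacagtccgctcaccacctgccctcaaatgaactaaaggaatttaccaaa
The first base of the shorter form lay at -90 from the start in Adrb1, and at -120 and -6 in Prkaca. GC made up 72.3% of the Adrb1 window, 69.7% of the Prkaca window and 39.7% of the Pde4d window. Among the other genes of the pathway, 32 of 149 windows (21.5%) held the shorter form. These are matches of letters, and no binding was measured.

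Among the receptors, Chrm2 had the highest level in the 4 chambers and Adra1a in live and fixed cells, though their intervals overlapped in RA, live and fixed cells. Adrb1, on the plus strand of GRCm38 chromosome 19 at 56722199 to 56733113, stood at 22.2 CPM in LV (57 UMIs) and 12.4 in RV (37), at 15.0 in LA (14) and 55.3 in RA (26), and at 27.6 in live (41) against 12.4 in fixed cells (30). It was the lowest of the 9 in LA, LV, RV and fixed cells, with an interval that overlapped that of Kcnj5 in the last 3, and a UMI of it was seen in 24.2% of LV cells (exact binomial interval 15.8 to 34.3%). Adra1a, which codes for the alpha-1A receptor (chromosome 14, 66635251 to 66771168, plus strand), had 82.2 and 99.4 CPM in the left and right ventricle pools, 71.8 and 102 in the atrial pools, and 111 in live against 61.9 in fixed cells. Adra1b, which codes for the alpha-1B receptor (chromosome 11, 43774606 to 43901210, minus strand), had 78.7 and 58.6 in the ventricle pools, 47.1 and 19.1 in the atrial pools, and 17.5 and 16.5 in live and fixed cells. The Adra1a and Adra1b intervals overlapped in LV (71.5 to 94.1 and 68.2 to 90.4 CPM) but not in RV, where Adra1a was higher. Chrm2, the M2 receptor gene (chromosome 6, 36388084 to 36528414, plus strand), had 177 and 189 CPM in LV and RV, 124 and 134 in LA and RA, and 91.7 in live against 48.3 in fixed cells. Exons of the long noncoding RNA gene 9330158H04Rik lie over it on the opposite strand, and reads of the pair cannot be told apart where the counting ignored strand. Adrb3, the beta-3 receptor gene, was near 0, with 3 UMIs in LV, 2 in live cells and 0 in the other 4 pools.

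Kcnj3 and Kcnj5 code for the 2 subunits, GIRK1 and GIRK4, that pair in the acetylcholine-gated channel of the heart. Kcnj3 (chromosome 2, 55435970 to 55598145, plus strand) stood at 96.6 and 93.0 CPM in LV and RV, at 81.4 and 38.3 in LA and RA, and at 74.8 in live against 32.2 in fixed cells. Kcnj5 (chromosome 9, 32314707 to 32344350, minus strand) had 26.5 and 16.4 in LV and RV, 76.0 and 19.1 in LA and RA, and 14.2 and 14.0 in live and fixed cells. In LA the intervals of the partners overlapped (64.1 to 102 and 59.4 to 95.9 CPM). In LV, RV, live and fixed cells Kcnj3 was above Kcnj5 with no overlap, and in RA, with 18 and 9 UMIs, the intervals overlapped. Kcnj6, a further gene of this channel family, had 4 UMIs in LA and RA together, 46 in LV and RV, 27 in live and 12 in fixed cells. That was 0 and 8.51 CPM in LA and RA, 8.57 and 8.03 in LV and RV, and 18.2 and 4.95 in live and fixed cells.

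Pde4d was first and Pde3a second of the 9 in all 6 pools. Pde4d, which codes for a cyclic AMP-specific phosphodiesterase found with the beta receptors and the ryanodine receptor (chromosome 13, 108449948 to 109953461, plus strand, the longest of the 9 at 1503.5 kb), stood at 797 and 886 CPM in LV and RV, at 644 and 989 in LA and RA, and at 836 in live against 350 in fixed cells. That placed it between 89th among all genes in live cells and 212th in fixed cells. Pde3a, which codes for the cyclic GMP-inhibited phosphodiesterase (chromosome 6, 141249269 to 141507448, plus strand), had 214 and 259 in LV and RV, 146 and 240.4 in LA and RA, and 200.2 in live against 112 in fixed cells. Prkaca, the catalytic subunit alpha gene of protein kinase A (chromosome 8, 83972993 to 83996443, plus strand), had 169 and 165 in LV and RV, 109 and 113 in LA and RA, and 45.8 in live against 68.5 in fixed cells. In the ventricles the order was Pde4d, Pde3a, then Chrm2 and Prkaca with overlapping intervals, then Kcnj3 and the alpha-1 receptors, and last Kcnj5 and Adrb1, again overlapping.

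**Figure D1:**
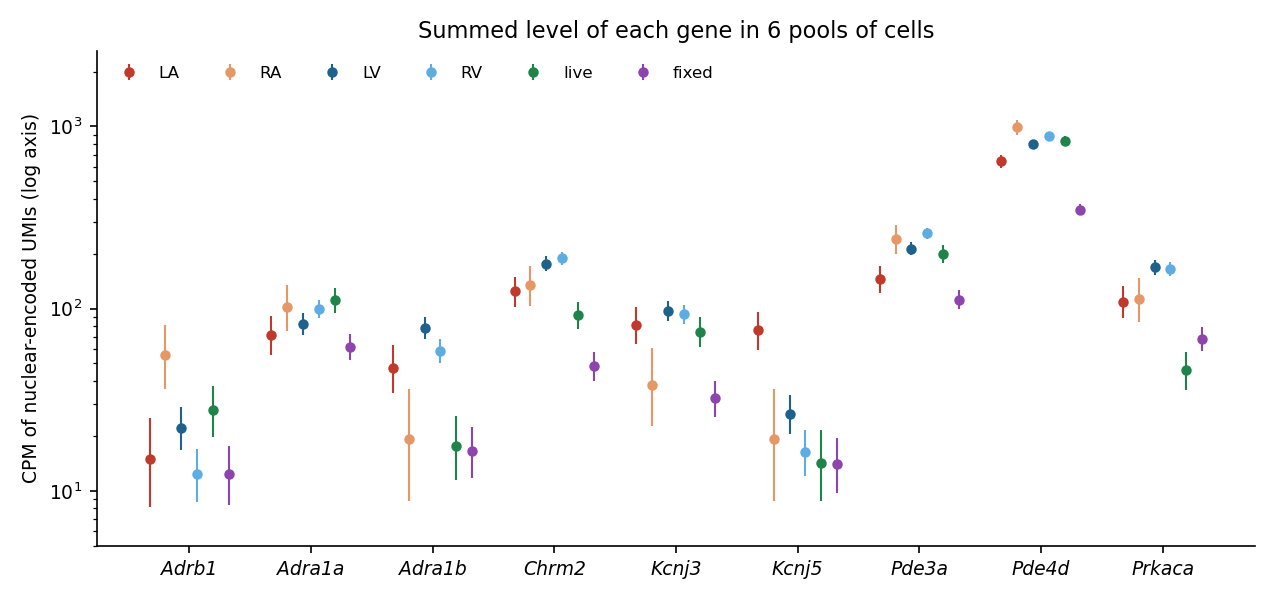
Level of each gene in the 6 pools of summed cells, in CPM of nuclear-encoded UMIs on a log axis, with exact 95% Poisson intervals as bars. Pde4d lies above the other genes in every pool, from 350 CPM in fixed to 989 in RA, and Adrb1 and Kcnj5 lie lowest in LV and RV.

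For most of the 9 genes LV and RV differed little in the summed pools. At least 1.5-fold apart, with at least 30 UMIs in the pools compared, were 2 of 9: Adrb1 and Kcnj5, both higher in LV. Of all 10812 genes with that many UMIs, 16.9% were at least 1.5-fold higher in LV and 11.9% lower, 28.8% in all, so 2 of 9 is close to that share. The median log2 ratio was 0.03 over the 9 genes and 0.04 over all genes. Adrb1 in libraries A, B, C and D had 17, 3, 17 and 20 UMIs in LV and 12, 8, 5 and 12 in RV. LV was higher in A, C and D, at CPM ratios of 1.28, 4.88 and 1.89, and lower in B, at 0.449, and the library levels of the chambers overlapped. The pooled ratio was 1.79 (interval 1.17 to 2.79), and without library C it was 1.34. Kcnj5 stood at 64.9, 11.7, 4.63 and 21.8 CPM in LV and at 11.4, 23.7, 17.2 and 12.4 in RV. LV was higher in A and D and lower in B and C, and library A held 44 of the 68 LV UMIs. Its pooled ratio was 1.62 (1.10 to 2.38), and without library A the sign turned, to a log2 ratio of -0.48.

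The other 7 genes had ratios from 0.824 for Pde3a to 1.34 for Adra1b. Adra1b was 2.21 and 2.61 times as high in LV in libraries C and D, 1.07 in B and 0.627 in A, and without library A it was 1.79 times as high. Pde4d, the most precisely counted of the 9, had 828, 766, 740 and 850 CPM in LV and 687, 1055, 694 and 1134 in RV. Its pooled ratio of 0.899 (0.848 to 0.952) hid ratios of 1.20 and 1.07 in libraries A and C and of 0.726 and 0.750 in B and D. Pde3a was likewise lower in LV in libraries B and D, at 0.610 and 0.653. Prkaca and Chrm2 had ratios of 1.02 (0.897 to 1.17) and 0.932 (0.822 to 1.06). For Pde4d, Pde3a and Kcnj5 the libraries thus spread more widely than their counting intervals. The same held for Adra1b and for other genes with pooled ratios near even. Adra1a was at 0.329 (0.187 to 0.559) in A and 1.07 (0.753 to 1.50) in C. Kcnj3 was at 0.680 (0.485 to 0.944) in B and 2.07 (1.38 to 3.13) in C. Prkaca was at 0.734 (0.556 to 0.966) in A and 1.35 (1.05 to 1.75) in D. Chrm2 was at 0.712 (0.538 to 0.938) in B and 1.21 (0.944 to 1.56) in C. None of the 9 genes was higher in the same ventricle in all 4 libraries.

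**Figure D2:**
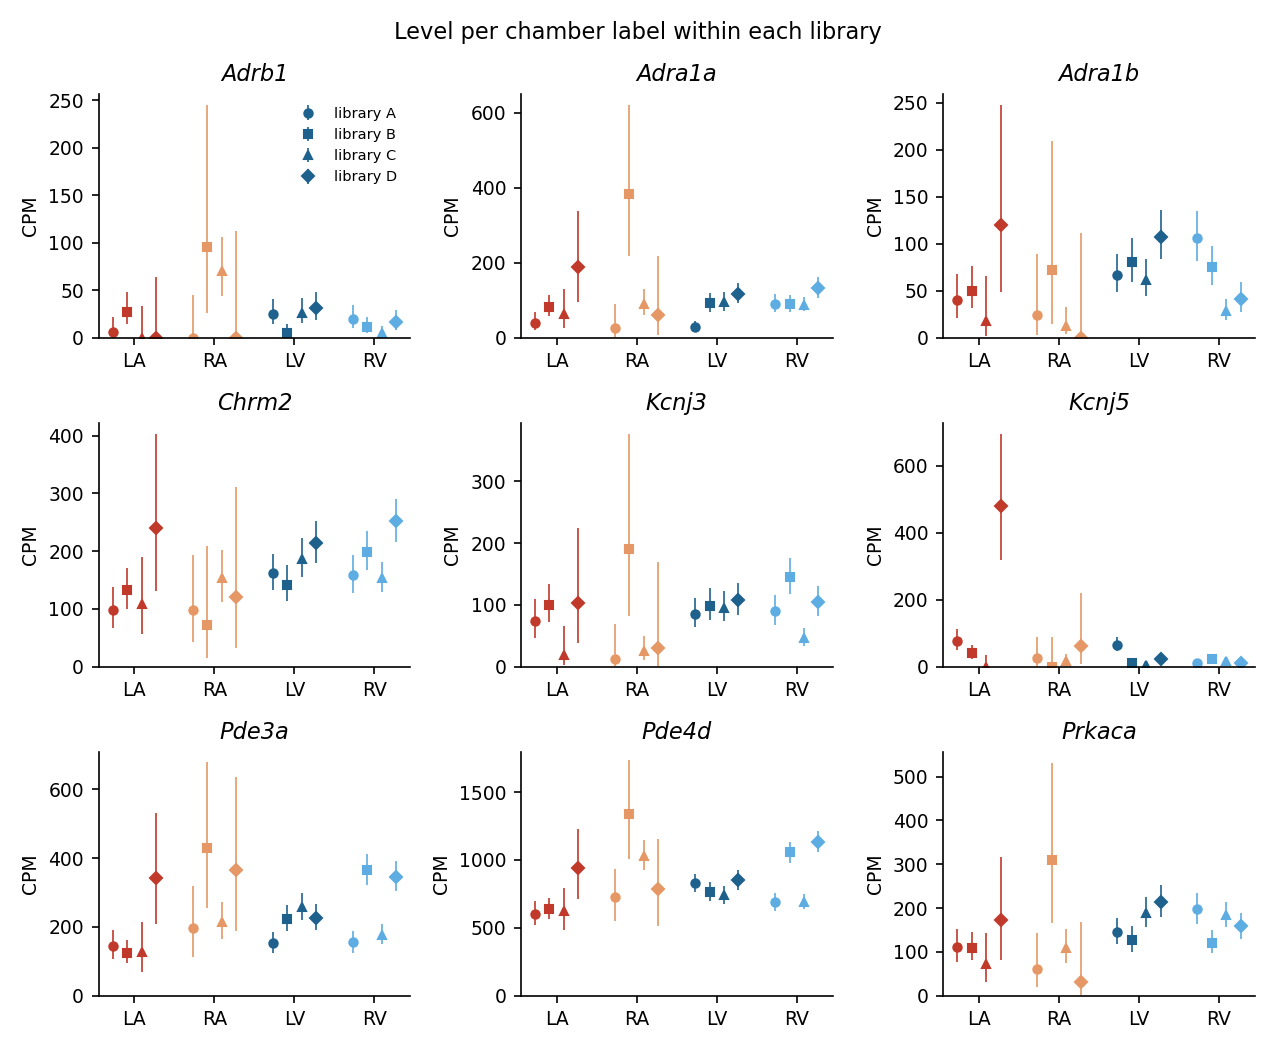
Level of each gene by chamber label and library, in CPM on a linear axis that starts at 0, with exact 95% Poisson intervals. In LV and RV the 4 libraries of a label spread as widely as the labels differ, and LA and RA points with few UMIs have long bars, such as Kcnj5 in LA of library D at 481 CPM.

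Between LA and RA, 6 of 9 genes were at least 1.5-fold apart, 3 higher and 3 lower in LA. In this thin comparison 49.0% of 5715 genes were, 31.6% higher and 17.4% lower. The medians were -0.11 and 0.11. Kcnj5 was 3.97-fold higher in LA (1.98 to 9.04). It had 76.7, 41.0, 0 and 481 CPM in LA in libraries A to D and 24.6, 0, 15.9 and 60.7 in RA. A single LA cell of library D held 28 of the 71 LA UMIs, and LA was above RA in A, B and D and below it in C, where it had 0 against 5 UMIs. Its partner Kcnj3 was 2.13-fold higher in LA (1.26 to 3.78), but 1.40-fold without library C, and was higher in libraries A and D and lower in B and C. Adra1b was 2.46-fold higher (1.19 to 5.73), from 44 and 9 UMIs, but 1.59-fold without library C, and in library B it had 50.1 CPM in LA against 71.7 in RA.

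Adrb1 was 3.69-fold lower in LA than in RA (1.86 to 7.64). Its UMIs in libraries A to D were 2, 12, 0 and 0 in LA and 0, 4, 22 and 0 in RA. Library C thus held 22 of the 26 RA UMIs, and 1 LA cell held 7 of the 14 LA UMIs. Of all nuclear-encoded UMIs of RA, library C held 313967 of 470095. Of those of LA, libraries A and B held 325958 and 439440 of 933747. Label and library are thus partly mixed in all pooled ratios of LA to RA. Pde3a was 1.65-fold lower in LA (1.27 to 2.13) and below RA in all 4 libraries, at ratios of 0.291 to 0.943. Pde4d was 1.54-fold lower (1.36 to 1.74), with 604, 637, 627 and 944 CPM in LA and 726, 1338, 1032 and 789 in RA. A single RA cell of library C had 183391 of the 733462 gene UMIs of RA. It held 35.3% of the RA UMIs of Pde4d, 33.6% of those of Pde3a, 38.1% of those of Chrm2 and 43.8% of those of Adra1a. Each of these shares was larger than the share of all RA gene UMIs in that cell, and the part of its depth in them was not tested. With the deepest cell of each chamber left out, the log2 ratios were -0.39 for Pde4d and -0.47 for Pde3a, both under the 1.5-fold line. With library B left out they were -0.56 and -0.44, Adrb1 and Adra1b had too few UMIs to measure, and of the other 7 genes Kcnj3 and Kcnj5 were past the line. Blood cell RNA was also unequal: haemoglobin and other erythroid genes made up 2.68% of nuclear UMIs in LA and 4.99% in RA, and its part in these ratios was not tested.

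Between atrial and ventricular labels, the vagal genes Chrm2 and Kcnj3 were lower in the cells labelled atrial. As background, the M2 receptor and the GIRK channel are best known for their action in the atria and sinus node. Chrm2 had 128 CPM in LA and RA together and 183 in LV and RV, a ratio of 0.695 (0.590 to 0.815), and the ratios in libraries A to D were 0.613, 0.733, 0.844 and 0.844. Kcnj3 had 67.0 and 94.7 CPM, a ratio of 0.707 (0.562 to 0.882), with 0.702, 0.874, 0.354 and 0.725 by library. Both were below 1 in all 4 libraries and under all 17 alternative settings, though the pooled ratios were short of the 1.5-fold line. They lay at percentiles 25.5 and 26.5 of all genes, and Adra1b and Prkaca, given below, had lower ratios, so this was not particular to the vagal genes. Kcnj5 went the other way, at 57.0 against 21.1 CPM and 2.71-fold higher (2.01 to 3.63). Its library ratios were 1.68, 2.05, 0.978 and 19.6, the last with 28 of 30 atrial UMIs from the 1 cell named above, and with equal weight for each cell it was 1.25-fold.

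In all, 4 of 9 genes were at least 1.5-fold apart, against 40.2% of 11682 genes: Kcnj5 and Adrb1 were higher, as were 17.0% of all genes, and Adra1b and Prkaca lower, as were 23.2%. The medians were -0.43 over the 9 and -0.07 over all genes. Adrb1 was 1.68-fold higher (1.13 to 2.46) in the pooled cells. By library it had 2 atrial and 29 ventricular UMIs in A, 16 and 11 in B, 22 and 22 in C, and 0 and 32 in D. It was higher in B and C, at 3.98 and 3.72, and lower in A, at 0.219. Library D gave no ratio, and its interval reached up to 1.83. Its LA and RA cells had only 58247 and 32969 nuclear-encoded UMIs, against 641241 and 727832 in LV and RV. Without library C the pooled Adrb1 ratio was 1.02, and without library B its log2 ratio was 0.41. Adra1b was 1.80-fold lower (1.35 to 2.44), with ratios of 0.433, 0.671, 0.338 and 1.06 by library and 0.680 with equal weight for each cell. Prkaca was 1.51-fold lower (1.27 to 1.80), just past the line, and stayed past it in 4 of 17 alternatives while it was below 1 in all 17. By library its ratios were 0.594, 1.02, 0.534 and 0.655. Pde3a was at 0.745 (0.648 to 0.853), below 1 in all 17 alternatives but above 1 in libraries A and D, at 1.01 and 1.21. Pde4d and Adra1a were close to even at 0.899 (0.840 to 0.961) and 0.896 (0.725 to 1.10). The atrial pools had fewer UMIs per cell, nearly no atrial marker RNA as given above, and mesothelial marker genes at 0.174% of nuclear UMIs in LA against 0.0057% in LV, and the part of these in the ratios was not tested.

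**Figure D3:**
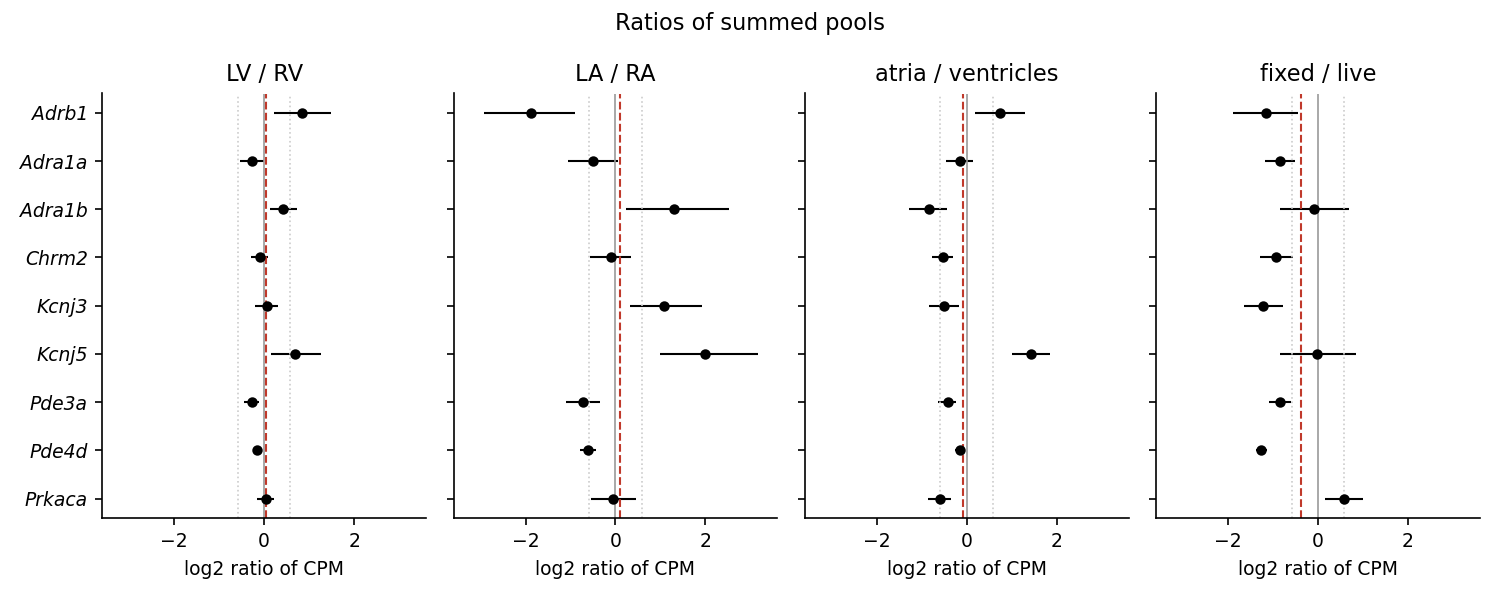
Log2 ratio of CPM for each gene in the 4 comparisons, with 95% intervals for counting error. The solid line marks no difference, dotted lines 1.5-fold, and the dashed line the median of all genes measured, which lies at -0.38 in the fixed to live panel, where 6 of the 9 genes are past the dotted line on the lower side.

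The live and fixed study was made, per the series' design text, to assess the sorter on ventricular cells before and after ethanol, and most of the 9 genes were lower in fixed cells. Lower by at least 1.5-fold were 6 of 9, against 40.0% of 7860 genes, and higher were 0, against 10.8%, with 50.8% of all genes past the line either way. The medians were -0.85 and -0.38. Pde4d was 2.39-fold lower (2.19 to 2.61), from 1240 UMIs in live and 848 in fixed cells. Kcnj3 was 2.33-fold lower (1.73 to 3.15), Adrb1 2.23-fold (1.36 to 3.70), Chrm2 1.90-fold (1.47 to 2.45), Adra1a 1.80-fold (1.43 to 2.26) and Pde3a 1.79-fold (1.51 to 2.12). These were 3 of the 4 receptor genes, 1 of the 2 channel genes and both phosphodiesterase genes. Adra1b and Kcnj5 were near even, at 0.942 (0.561 to 1.61) and 0.991 (0.559 to 1.80), from 40 and 34 UMIs in fixed cells. Prkaca stood apart from all of these: it was 1.49-fold higher in fixed cells (1.12 to 2.01), just short of the line.

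Since the median of all genes was itself below 0, each ratio was also set against that median. Relative to it, Pde4d lay at -0.87 on the log2 scale, Kcnj3 at -0.83, Adrb1 at -0.77, Chrm2 at -0.54, and Adra1a and Pde3a both at -0.46. Above it lay Adra1b at 0.30, Kcnj5 at 0.37 and Prkaca at 0.96. A change of total moves every gene alike and leaves these distances as they are, but it moves the counts. With all gene UMIs as the total the median of all genes was -0.14, and 6 genes were lower and 1, Prkaca, higher. With trimmed-mean (TMM) factors the median of all genes was 0.11, and 3 genes, Pde4d, Kcnj3 and Adrb1, were lower and Prkaca higher, while Adra1b and Kcnj5 turned to above 1 under both totals. With equal weight for each cell Adra1a was no longer past the line, at a log2 ratio of -0.20, and Adra1b and Kcnj5 were lower, at -0.99 and -1.85. By read counts Adrb1 was at -0.32. Depth and cell content also differed: the median fixed cell had 77150 UMIs and the median live cell 40367, and the cardiomyocyte marker genes summed to 3.53% and 4.42% of nuclear UMIs. Nuclear-encoded UMIs were 1483859 of 2069946 gene UMIs in live cells and 2424636 of 2848772 in fixed cells. The part of these differences in the ratios was not tested. At 5000 gene UMIs per cell, Pde4d was seen in 77.4% of 31 live cells (58.9 to 90.4%) and in 64.7% of 34 fixed cells (46.5 to 80.3%). Those 5000 UMIs included mitochondrial ones, so nuclear-encoded depth was not made equal. Without thinning the shares were 93.5% and 97.1%, which run against the CPM.

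Gene length went with the fixed to live ratio across all protein-coding genes. In 5 groups of equal size from the shortest to the longest genes, the median log2 ratio was -0.06, -0.17, -0.42, -0.60 and -0.85, and the share of genes at least 1.5-fold lower went from 23.5% to 65.0%. Adra1a, Adra1b, Chrm2, Kcnj3, Pde3a and Pde4d were in the group of the longest genes, whose quartiles were -1.32 and -0.37. Of these 6, Adra1b, at -0.09, lay outside the quartiles and the other 5 inside them, and 5 of 6 lower stood against 65.0% of the group. Adrb1, 10.9 kb long, was at -1.16, below the lower quartile of the shortest genes, -0.54. Its counting interval, -1.89 to -0.44, reached past that quartile. Prkaca, 23.5 kb long, was at 0.58, above the upper quartile of its group, 0.34, which its interval, 0.16 to 1.01, also took in. Kcnj5 lay at -0.01, within the quartiles of its group, -0.99 and 0.09. In the LV to RV comparison the 5 medians by length ran only from 0.01 to 0.05. In the atrial to ventricular comparison they were 0.04, -0.02, -0.06, -0.12 and -0.19, the last in the group that holds 6 of the 9 genes.

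**Figure D4:**
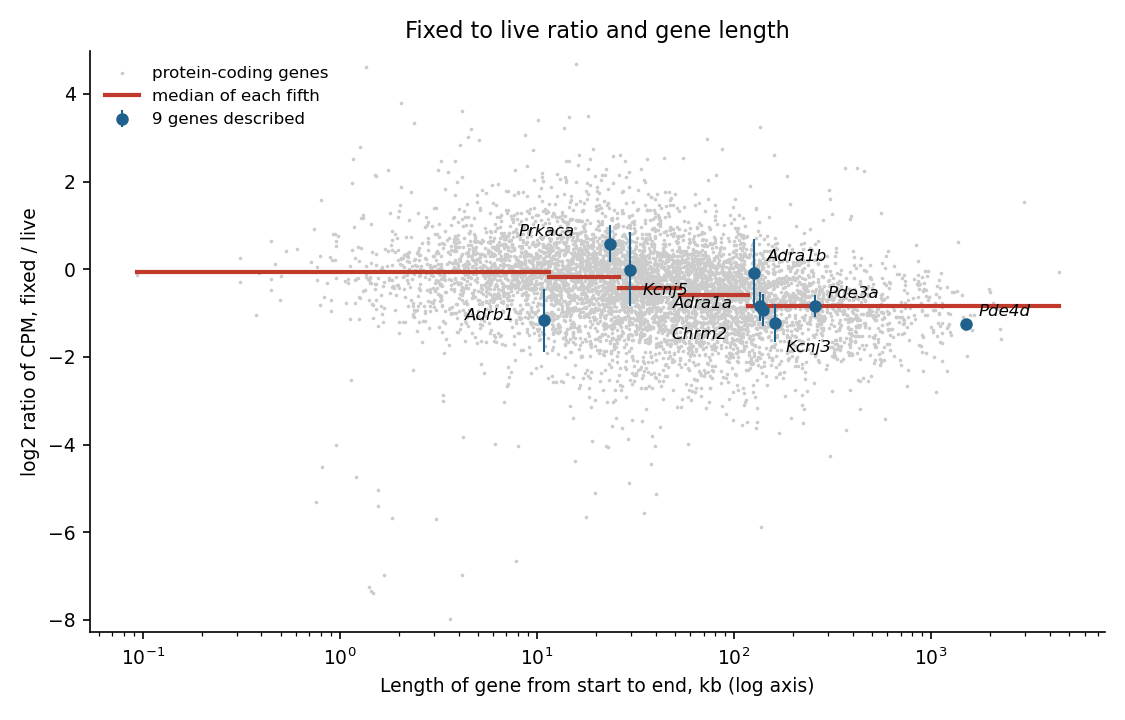
Log2 ratio of CPM in fixed to live cells against the length of each protein-coding gene from start to end in kb on a log axis. Red lines are the medians of 5 equal groups by length, from -0.06 to -0.85, and the 9 genes are in blue with 95% intervals for counting error. Adrb1 lies below and Prkaca above most genes of their length, though their intervals reach past the quartiles of their groups.

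Across single ventricular cells the members spread unequally. The 156 LV and RV cells with at least 20000 UMIs were each thinned to 20000. Pde4d had a UMI in 99.4% of them, Prkaca in 76.9%, Pde3a in 73.7%, Chrm2 in 64.1%, Adra1a in 50.0%, Kcnj3 in 41.7%, Adra1b in 35.3%, and Adrb1 and Kcnj5 in 13.5% each. The variance divided by the mean, which is 1 for counting error alone, was 3.95 for Pde4d, 3.90 for Pde3a and 3.16 for Chrm2. Those values were above 86.7%, 96.8% and 87.9% of genes with a like mean. Prkaca had a mean near that of Chrm2 (2.07 and 1.99 UMIs) but a ratio of 1.77, above only 15.2% of its like. Pde3a ran up to 16 UMIs in a cell with a median of 2, while Prkaca ran up to 9 with the same median. Adra1a (2.05) and Adrb1 (1.76) were also in the lower part, and Adra1b (2.63), Kcnj3 (2.71) and Kcnj5 (2.29) nearer the middle. The place of Prkaca did not hold at lower depth: in 176 cells thinned to 5000 UMIs its ratio was 1.48, above 64.9% of its like, while Pde3a, Pde4d and Chrm2 were above 97.2%, 94.5% and 91.1%. Thinning was by all gene UMIs, mitochondrial ones included, so these cells may still differ in nuclear-encoded depth. Library and chamber are also mixed in these cells. The part of all these in the spread was not tested. Only Pde4d had enough UMIs for a search for genes of like pattern. Over the same 156 cells, with library means taken out, the closest of 487 genes were Malat1 (Pearson r = 0.56), a nuclear noncoding RNA, Ttn (0.50), the titin gene, and Zbtb20 (0.49), against a median r of 0.06. The cells share libraries and total depth, and may differ in nuclear-encoded depth, so this is a description.

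**Figure D5:**
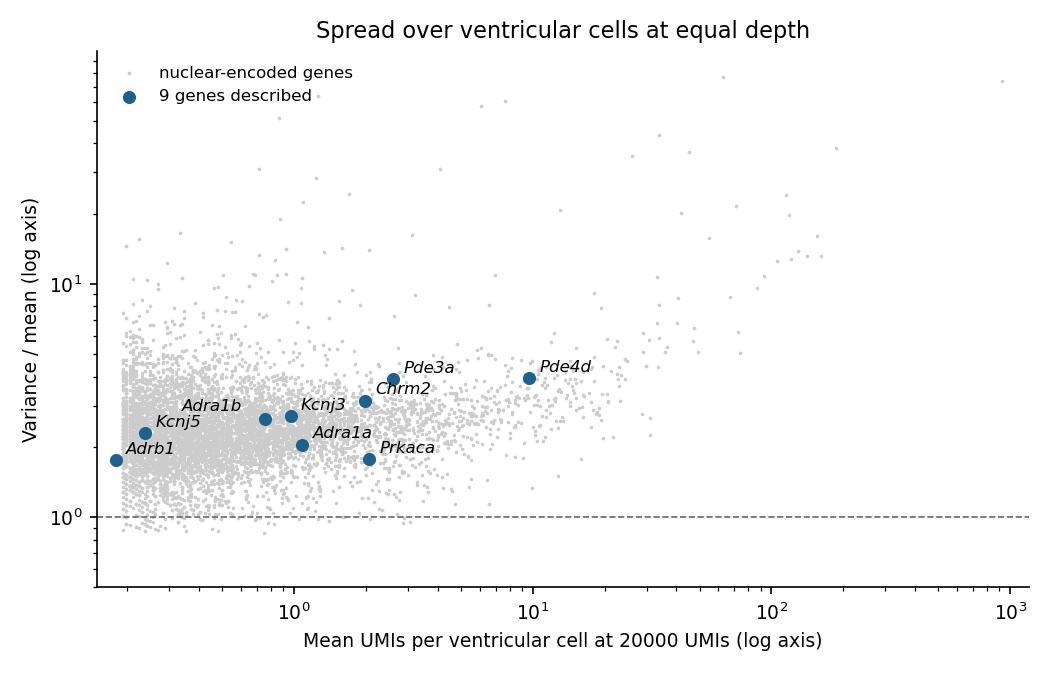
Variance divided by mean against mean UMIs per cell, both on log axes, over 156 LV and RV cells thinned to 20000 UMIs. The dashed line at 1 marks counting error alone; Pde3a at 3.90 and Chrm2 at 3.16 lie in the upper part and Prkaca at 1.77 in the lower part of genes with like means at this depth, though above 64.9% of them at 5000 UMIs.

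The rest of the pathway was read from 116 further genes in 12 roles. The most abundant of each role in the ventricles were led by Tnni3, the gene of troponin I and a target of protein kinase A, at 6825 CPM in LV and 7079 in RV. Pde4dip, which codes for an anchoring protein that binds Pde4d, had 1200.3 and 1237 CPM, above Pde4d itself. Among the phosphodiesterase genes other than the 9, Pde4b was first, at 206 and 284 CPM, near the level of Pde3a. Gnai2, the Gi subunit gene, had 206 and 222, Prkar1a, a regulatory subunit gene of protein kinase A, 253 and 252, Popdc2, a cyclic AMP-binding membrane protein gene, 408 and 401, and Prkca, a protein kinase C gene downstream of alpha-1 receptors, 304 and 302. Lower were Grk5, a receptor kinase gene, at 129 and 106, Adcy6, an adenylyl cyclase gene, at 55.3 and 52.9, and Chrm3, the M3 receptor gene, at 9.74 and 14.7.

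Between LV and RV, 86 of the further genes were measured, of which 15 were at least 1.5-fold higher in LV and 5 lower, with a median log2 ratio of 0.11, against 16.9% and 11.9% of all genes. Without the top cell of each gene 11 were higher and 10 lower, with a median of 0.02. Pde3b, the relative of Pde3a, was 4.55-fold higher in LV, from 43 and 11 UMIs. Arrb1, which codes for a beta-arrestin that uncouples receptors, was 3.21-fold higher, with 43 of its 69 LV UMIs in 1 cell. Rgs3 (2.94-fold), Gng2 (2.54-fold) and Plcb3 (2.25-fold) were higher as well. Adcy10 was 12.0-fold lower in LV, from 2 and 28 UMIs with 14 of the latter in 1 cell, and Adcy7 and Grk3 were 3.65-fold and 3.51-fold lower. Of 12 heterotrimeric G protein genes 5 were higher and 0 lower in LV, against the same 16.9% and 11.9% of all genes. This is 1 role named out of 12, and its counts are given without the alternative settings. Of 7 alpha-1 effector genes 3 were higher and 0 lower, and of 14 protein kinase A targets 0 and 0.

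Between LA and RA, 14 of 59 were higher and 8 lower, against 31.6% and 17.4% of all genes, with a median of -0.03. Pde10a was 13.6-fold and Rapgef3, the gene of the cyclic AMP sensor Epac1, 18.6-fold higher in LA. A single LA cell with 102715 UMIs held 72.4% and 73.0% of their LA UMIs, and mesothelial marker genes made up 0.983% of its nuclear UMIs. Arrb1 (7.30-fold), Pde8a (3.65-fold), Adcy5 (2.69-fold), Plcb1 (2.27-fold) and Prkacb (2.22-fold) were also higher, each from 2 to 16 UMIs in RA. Akap6, the gene of an anchoring protein at the nuclear envelope, was 2.97-fold lower in LA, with 44.1% of its RA UMIs in the deep RA cell named above.

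Between atrial and ventricular labels, 7 of 89 were higher and 23 lower, against 17.0% and 23.2% of all genes, with a median of -0.22. Of 8 adenylyl cyclase genes 5 were lower and 0 higher. This role and that of the receptor kinases below are named out of 12, without the alternative settings. Of 14 protein kinase A targets 2 were lower and 1 higher, and of 12 heterotrimeric G protein genes 3 were lower and 0 higher. Adcy10, with 0 atrial and 30 ventricular UMIs, was 2.53-fold lower at the floor of 3 counts, which is not a lower limit. Many of its ventricular UMIs came from the 1 RV cell noted for it above. Of 10 genes for receptor kinases, arrestins and RGS proteins 5 were lower, among them Rgs5, at 15.7 against 70.6 CPM, and Rgs3 (3.12-fold). Rgs5 is also on the marker list used here for mural cells, the cells of vessel walls. Mural marker genes made up 0.0228% and 0.0306% of nuclear UMIs in LA and RA, and 0.0379% and 0.0322% in LV and RV. The part of mural RNA in the Rgs5 ratio was not tested. Gng2 had 1 atrial and 35 ventricular UMIs, Kcne1, the gene of a potassium channel subunit, 3 and 51, and Kcnj6 4 and 46. These raw counts come from unequal totals. LA and RA had 933747 and 470095 nuclear-encoded UMIs, and LV and RV 2566040 and 2988611. Kcnj6 was at 0 CPM in LA but at 8.51 in RA, beside 8.57 in LV and 8.03 in RV. Pde10a was 11.5-fold higher, again with the LA cell named above, and Grk6 3.13-fold, from 34 and 43 UMIs.

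Between fixed and live cells, 41 of 65 were lower and 3 higher, against 40.0% and 10.8% of all genes and 65.0% lower among the longest genes. Their median was -0.78, beside -0.85 for the 9 genes. Furthest apart were Adcy8 (9.15-fold lower), Crem (8.91-fold), the gene of a cyclic AMP-responsive transcription factor, and Gng12 (6.21-fold, from 1004 UMIs in live and 264 in fixed cells). Akap7 was 5.16-fold lower, Pde8a 4.77-fold, Rgs6 4.20-fold, Plcb4 4.15-fold and Pde7b 3.92-fold. Of 11 phosphodiesterase genes, Pde3a and Pde4d among them, 8 were lower, including Pde4b at 3.33-fold, and 0 higher, against the same background. The 3 higher genes, named after their values were seen, were Gna11 (2.93-fold), which codes for a Gq-family subunit, Adcy5 (2.28-fold) and Adcy6 (1.56-fold). Of 6 genes for subunits and inhibitors of protein kinase A, Prkaca included, 0 were higher and 1 was lower: Prkacb, the other main catalytic subunit gene, at 1.85-fold, from 26 and 23 UMIs. Prkar1a was near even, at 127 CPM in fixed and 125 in live cells.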

How the data were processed

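SCRB-seq libraries of single sorted mouse cardiomyocytes were deposited as tables of UMI counts and read counts per gene and cell, with a table naming each cell's chamber and library or its fixation. Per the submitters' processing notes, the authors used STAR 2.5.4b, featureCounts and GRCm38. Not given in the sources used here: annotation release, strand setting, UMI tool and animals. Cells of a label were therefore summed into 1 pool. The UMI counts as deposited were used, and read counts were an alternative. The 45 barcode columns with no label were not used. Counts were divided by the pool's nuclear-encoded UMIs, leaving out spike-ins and mitochondrial genes. Levels have exact Poisson intervals, shares exact Clopper-Pearson intervals, and ratios of pools intervals from the exact binomial share of the summed counts, at 95% and for counting error only. A gene was called when the pools were at least 1.5-fold apart with at least 30 UMIs together. With no UMI in a pool the floor was 3 counts. No doublet caller was run and no cell types were clustered.

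The 6-base cell barcodes recur between libraries (80 of 84 in all 4), but no full barcode was shared. Gene positions come from GENCODE M21 on GRCm38. The 9 genes, the pathway list and 10 cell type marker lists were chosen with earlier results of these data known. Of the pathway list, the most abundant gene of each role in LV and RV and up to 8 genes per comparison with the largest ratios are named. A gene of like pattern was sought for genes with at least 500 UMIs in thinned cells, and the closest 3 are named. Alternatives were other totals, read counts, other filters, equal weight per cell and leaving out cells or libraries. Leaving out cells over 0.5% mesothelial RNA, and the deepest cell of each pool, was added after seeing the data. The ratio intervals were also run on simulated Poisson counts, the model that they assume. That run cannot show how they behave where cells or libraries vary more than this, as they do here. TMM factors came from edgeR 4.0.16 in R 4.3.3, and everything else from Python 3.11.15 with scipy 1.17.1, pandas 2.3.3, numpy 2.4.6 and matplotlib 3.10.9.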

Additional observations from a re-analysis of the deposited data

How the results depend on the processing

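Of the ratios of single genes under the alternatives, 487 moved by less than their counting interval, 67 by more, and 1 that had been past 1.5-fold turned sign: Kcnj5 between LV and RV, to -0.48 without library A. Of the 289 values for ratios short of 1.5-fold, 30 had the opposite sign, among them Adra1b between LV and RV (-0.33) and Adra1a between LA and RA (0.41), both by read counts, and Chrm2 between LA and RA, up to 0.39 without library C. Counts of the 9 genes at least 1.5-fold apart moved as follows. Between LV and RV the count was 2, and 1 among cells with at least 20000 UMIs, with a minimum of 100 UMIs, on the log2(CPM + 5) scale, without the top cell of each gene, without the deepest cell of each pool, and at the lowest on leaving out a library (1 to 2). Between LA and RA it was 6, 2 with the minimum of 100 UMIs, and 2 to 7 on leaving out a library. Between atrial and ventricular labels it was 4, and 2 with equal weight per cell or without the top cell. Of the other pathway genes, read counts called 40 between LV and RV in place of 20, 39 between LA and RA in place of 22, and 52 between atrial and ventricular labels in place of 30. The minimum of 100 UMIs left 5, 8, 14 and, for fixed against live in place of 44, 22. Leaving out a library gave 12 to 28 between LV and RV, leaving out mesothelial-rich cells gave 13 between LA and RA, and log2(CPM + 5) gave 16 between atrial and ventricular labels. The median variance to mean ratio of the 9 genes was 2.63, and 1.48 at 5000 UMIs per cell. The cause of these moves was not tested. No paired analysis was possible because the labels give no replicate numbers and tie no cell to an animal. Libraries A to D each hold cells of several labels, and their ratios are given beside the pooled ones, with no test. In RA 3 counts are 6.38 CPM and in RV 1.00, so levels of Adrb1, Adra1b and Kcnj5 in RA rest on 9 to 26 UMIs.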
